A study of Rattus norvegicus with 34 samples.

Results

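The expression of 10 chaperone genes of the cytosol and the mitochondrion was followed on arrays of rat cells, kidney and liver: Hspa8, Hspa4, Hspa9, Hsph1, Hsp90aa1, Hspb1, Hspd1, Hspe1, Dnajb1 and Dnaja1. They were taken by gene symbol, and the list was chosen with earlier results of these data known. Of 31099 probe sets on the array, 14 name 1 of these 10 genes and no other gene, and 3 name a member together with another gene. The 14 belong to 8 of the 10 genes, out of 14217 genes with a probe set of their own. Hspa8 and Hsp90aa1 are named only by the 3 shared probe sets, so values from those are given for the probe set and not for the gene.

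The 34 arrays carry RNA of NRK-52E, an established rat kidney epithelial line, and of the kidney and liver of male Wistar-derived rats. Cells labelled as treated with monuron, a phenylurea herbicide, and cells given 0.1% DMSO were taken at 6, 24 and 72 h, with 3 arrays in each group. Rats aged 7 to 9 weeks and weighing 190 to 240 g received monuron in corn oil (5 ml/kg), first at 40 and then at 400 mg/kg, or corn oil alone. Each organ has 4 treated and 4 control arrays. The labels call the arrays biological replicates without naming separate cultures, so p-values measure the spread between these samples. The treatment text of the cells names another compound, chlorothalonil, at 1.1 µM, while every sample label says monuron. The compound and its concentration in the cells are therefore in doubt, and "monuron" below stands for the label. The labels give 72 h for the rats, and whether a kidney and a liver came from 1 animal is not stated.

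Values are deposited log2 expression values, and a difference is monuron minus control on that scale. A gene was called where limma's p, adjusted by Benjamini-Hochberg over all genes tested, was under 0.05. All 8 members with their own probe set passed the filter on dim probe sets in every fit. Where a gene has several probe sets, the brightest stands for it, and the treatment differences of the others are given beside it. Values were compared within cells, within kidney and within liver only. Of 17 proximal tubule marker genes, 17 lay above the median of every kidney array, and 1 did so on every NRK-52E array. All 11 hepatocyte markers lay above the median of every liver array, and 0 of 11 on every cell array. On every cell array 2 of 7 epithelial markers and 4 of 8 fibroblast and stellate cell markers did so. In the organs, fewer cells of a type and less RNA per cell cannot be told apart.

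The DMSO array of replicate 3 at 72 h lay farthest from its group: over 9042 genes its mean distance from the group's other arrays was 0.39. The other 17 cell arrays had 0.10 to 0.34, and the 0.34 was DMSO replicate 1 of 72 h. Replicate 3 was thus not alone in the spread of its group. For 5 of the 6 members called at 72 h replicate 3 was the DMSO array nearest to the monuron mean. Leaving it out therefore enlarges the 72 h differences of these 5 by construction. Results that rest on it are given with and without it.

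Heat shock proteins are chaperones that keep other proteins folded, unfold aggregates and help proteins into organelles. HSP70 proteins hold exposed stretches of a client, J proteins deliver the client and start ATP hydrolysis, and exchange factors release it. HSP90 matures signalling proteins, the chaperonin of HSPD1 with its lid HSPE1 folds proteins inside the mitochondrion, and small heat shock proteins hold unfolded proteins without ATP. Many of the genes answer to heat shock factor 1, which binds inverted repeats of the unit GAA, called heat shock elements.

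Promoter windows of 300 bases, 250 before and 50 after a start, were taken from RefSeq (GRCr8) and were found for 9 of the 10 genes. Of these 9 windows 5 held 3 alternating units in a row, that is GAANNTTC followed by 2 free bases and another GAA, on either strand: Hspa8, Hspd1, Hspe1, Hsph1 and Dnaja1. Among all 33469 windows 267 did (0.80%). Of the 9 windows 8 held 2 units (GAANNTTC or TTCNNGAA, both strands, which also lie within the 3 units), against 15.85% of all windows, and the exception was Hspa4. Heat shock elements matched in the windows of Hspa8 and Hspa9 are not printed here. The stretches below show elements of Hspe1, Hspd1, Hsph1, Dnaja1, Dnajb1 and Hspb1. They read 5′ to 3′ on the gene's strand, with the letters of the units in capitals.
Hspe1: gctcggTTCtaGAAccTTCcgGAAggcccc
Hspd1: ggggccTTCcgGAAggTTCtaGAAccgagc
Hsph1: tgccgcagaTTCtgGAAagTTCtcctcagt
Dnaja1: ggccgggcgGAActTTCcaGAAcgctcggt
Dnajb1: cgggaggggcgGAAggTTCtggagggctgg
Hspb1: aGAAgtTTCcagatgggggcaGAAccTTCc
The stretches of Hspe1 (plus strand) and Hspd1 (minus strand) are the same 30 bases, chr9:64084256-64084285, read from opposite strands, since the 2 genes lie head to head and their gene models overlap by 6 bases. The Hsph1 stretch is chr12:10427323-10427352 (plus strand), the Dnaja1 stretch chr5:60638404-60638433 (plus strand, the first 30 bases from the start), the Dnajb1 stretch chr19:41431134-41431163 (minus strand) and the Hspb1 stretch chr12:26432402-26432431 (minus strand). A match is a description of letters and no evidence of binding.

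Hspa9, the mitochondrial HSP70, was the member with a match to TGATGNAA, the C/EBP-ATF composite element that ATF4 and CHOP bind, searched on both strands and held by 3.98% of all windows. It is shown because Hspa9 was the member that rose most in the cells, so the choice followed the result. A part of the element in that rise was not tested. The same window also held 2 matches to the heat shock element of 2 units. Below, the letters of the composite element are in capitals.
Hspa9: cccagaagccgTGATGaAAgaacggaaatt
This stretch is chr18:26828544-26828573 on the minus strand. The RefSeq windows of Hspa9, Hspa4 and Hspd1 begin at starts that lie 4560, 2159 and 295 bases inside their gene models, so upstream starts of these 3 genes are not covered.

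At 6 h 0 of the 8 members was called in the cells, against 6.31% of 9042 genes. Their differences ran from -0.20 to 0.27, and limma's unadjusted p was under 0.05 for 0 of them. The share of all genes at an unadjusted p was not computed in any comparison. The other tested probe sets of Hspa9, Dnaja1, Dnajb1 and Hsph1 differed by -0.20 to 0.55 at 6 h, and none was called. With array weights 3 members were called at 6 h, where 42.8% of all genes were. By 24 h 1 member, Hspa9, was higher and 3, Dnaja1, Dnajb1 and Hsph1, were lower. That is 4 of 8, against 13.6% of all genes (6.43% higher and 7.14% lower, and 10.7% of probe sets tested one by one). By 72 h 6 of 8 were called, against 61.6% of all genes (30.7% higher and 30.9% lower, and 55.8% of probe sets tested one by one), so that share says little about the members as such. Hspa9, Hspd1 and Hspe1 were higher and Hspa4, Dnaja1 and Hspb1 lower. The medians of the 8 were -0.07, -0.20 and 0.07 at the successive times, beside -0.02, -0.00 and 0.01 over all genes. Without DMSO replicate 3 of 72 h the same 6 members were called at 72 h, against 65.8% of all genes, and the median of the 8 was -0.07. The count at 24 h fell to 2, 2, 1 and 2 without monuron replicate 1, monuron replicate 2, DMSO replicate 1 and DMSO replicate 2 of 24 h. The shares of all genes in those 4 fits are not given here. Whether calls fell for all genes alike cannot be read from these counts.

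**Figure D1:**
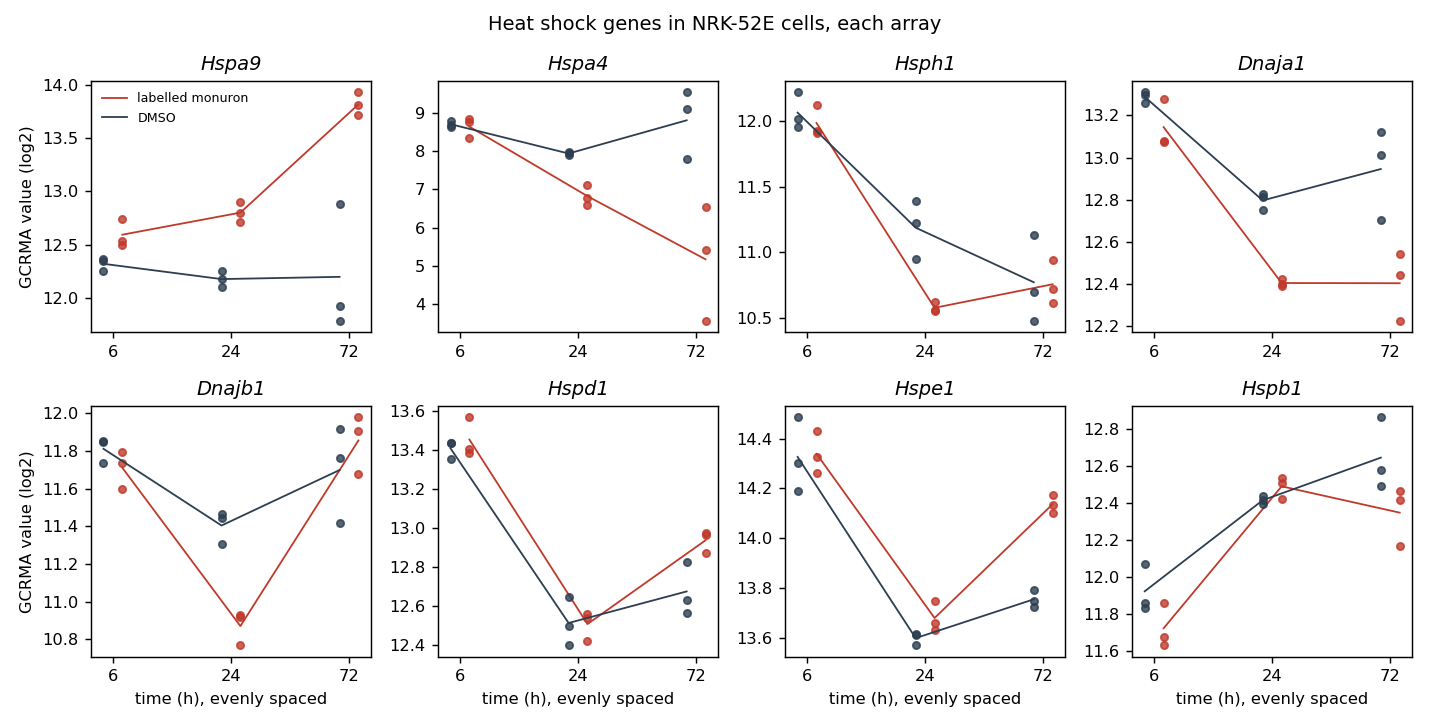
Log2 expression values (y axis) of the 8 members with their own probe set in NRK-52E cells at 6, 24 and 72 h (x axis, evenly spaced). Each point is 1 array and lines join group means; Hspa9 parts upwards and Hspa4 downwards from DMSO, while the plotted probe sets of Dnajb1 and Hsph1 are lower at 24 h and overlap with DMSO at 72 h.

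HSPA9, also called mortalin, pulls imported proteins into the mitochondrial matrix. Its probe set 1388851_at read 12.54, 12.74 and 12.50 with monuron and 12.36, 12.35 and 12.25 with DMSO at 6 h. The groups were close but did not overlap, which held for 38.1% of all genes at that time, and the difference of 0.27 (SE 0.19) was not called (adjusted p = 0.4065). It was called without DMSO replicate 3 of 72 h (adjusted p = 0.0290), where its SE was 0.08, and in a fit of the 6 arrays of 6 h (adjusted p = 0.0328). At 24 h the monuron arrays read 12.90, 12.71 and 12.79 and the DMSO arrays 12.17, 12.25 and 12.10, with no overlap, as for 49.4% of genes. Hspa9 was 0.62 higher (SE 0.19, adjusted p = 0.0369), but lost the call without any 1 of the 6 arrays of that time (adjusted p from 0.0771 to 0.1145), with centred arrays (0.0600) and without the filter (0.0667).

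The 72 h arrays of Hspa9 stood at 13.72, 13.81 and 13.93 with monuron. Their DMSO partners stood at 11.93, 11.78 and 12.88, the last from replicate 3, the array farthest from its group. All 3 monuron arrays were above all 3 DMSO arrays, a separation that 57.9% of genes had at 72 h, and the difference was 1.62 (SE 0.19, adjusted p = 3.06e-06), or 3.08-fold. Without DMSO replicate 3 it was 1.96 (adjusted p = 3.53e-11). A second probe set, 1370690_at, rose by 0.76 at 24 h and by 1.90 at 72 h (adjusted p = 0.0202 and 1.41e-06), and another, 1391915_at, by 1.44 at 72 h (adjusted p = 0.0011), while its 0.68 at 24 h was not called (adjusted p = 0.1784). The last, 1389930_at, lay between 2.17 and 2.30 on every cell array, below the array medians of 3.96 to 4.18, and was not tested.

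HSPA4 and HSPH1 belong to the HSP110 branch of the HSP70 family, which releases clients from HSP70 and helps to dissolve aggregates. Hspa4 (1370344_at) read 8.84, 8.33 and 8.76 with monuron at 6 h and 8.63, 8.70 and 8.79 with DMSO, 2 overlapping groups. By 24 h it read 7.11, 6.59 and 6.77 with monuron, and 7.98, 7.90 and 7.94 with DMSO. These groups no longer overlapped, yet the difference of -1.12 (SE 0.52) was not called in the fit of all 18 cell arrays (adjusted p = 0.1666). It was called in a fit of the 6 arrays of that time (adjusted p = 3.85e-04) and without monuron replicate 3 of 72 h (adjusted p = 0.0395).

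At 72 h Hspa4 was the member with the largest difference. Its monuron arrays read 6.54, 5.41 and 3.57, against 9.54, 9.10 and 7.79 with DMSO. Every monuron array lay below every DMSO array, but each group spread over more than a log2 unit and the lowest value was under its array's median. The difference was -3.64 (SE 0.52, adjusted p = 2.27e-05), or 12.4-fold lower. Leaving out 1 array moved it from -2.83 (7.12-fold, without monuron replicate 3 of 72 h, the array under its median) to -4.32 (19.9-fold, without monuron replicate 1 of 72 h). It was -4.15 without DMSO replicate 3 of 72 h (adjusted p = 2.17e-06). Hspa4l, the close relative of Hspa4, went the other way at 72 h and was 1.75 higher (SE 0.30, adjusted p = 1.24e-04). Hspa4 has 1 probe set on the array, so no second reading stands beside it.

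Hsph1 (1388898_at) started at 12.12, 11.91 and 11.92 with monuron and 12.22, 12.02 and 11.96 with DMSO. At 24 h the monuron arrays had come down to 10.62, 10.56 and 10.55 and the DMSO arrays to 11.22, 11.39 and 10.95. Monuron was thus below DMSO on every array, by 0.61 (SE 0.14, adjusted p = 0.0122), and the second probe set, 1385620_at, differed by -0.67 (adjusted p = 0.0429). The call was lost without DMSO replicate 1 or 2 of 24 h (adjusted p = 0.0534 and 0.0644). At 72 h the groups overlapped, with 10.94, 10.72 and 10.61 against 10.70, 11.13 and 10.48, and a difference of -0.02 (SE 0.14). That value changed sign, to 0.07, when each array was centred on its median. The second probe set was at -0.09 at 72 h, not called.

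DNAJA1 and DNAJB1 are the main cytosolic J proteins that bring clients to HSP70. Dnaja1 (1398819_at) read 13.28, 13.08 and 13.07 with monuron and 13.31, 13.26 and 13.30 with DMSO at 6 h. At 24 h it read 12.39, 12.40 and 12.43 against 12.81, 12.75 and 12.83, and the groups were apart. The difference was -0.39 (SE 0.10, adjusted p = 0.0142), and the call was lost without monuron replicate 1 or 2 or DMSO replicate 1 of 24 h (adjusted p = 0.0501, 0.0507 and 0.0574).

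Dnaja1 was still lower at 72 h, at 12.54, 12.44 and 12.22 against 13.12, 13.01 and 12.70. Again no monuron array reached a DMSO array. The difference was -0.54 (SE 0.10, adjusted p = 1.43e-04), and -0.66 without DMSO replicate 3. Its second probe set, 1368852_at, was 0.90 lower at 24 h and 1.15 lower at 72 h (differences of -0.90 and -1.15, adjusted p = 0.0316 and 0.0011), the same direction and larger.

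Dnajb1 (1388722_at) dipped at 24 h. It read 11.79, 11.74 and 11.60 with monuron at 6 h, against 11.85, 11.73 and 11.85 with DMSO. The 24 h arrays read 10.92, 10.93 and 10.77 against 11.46, 11.44 and 11.31, a difference of -0.53 (SE 0.11, adjusted p = 0.0062) between groups that did not overlap. This was the smallest adjusted p of any member at that time. At 72 h the arrays read 11.98, 11.91 and 11.68 against 11.92, 11.76 and 11.42, overlapping, and 0.16 apart (SE 0.11, adjusted p = 0.2283), though called without DMSO replicate 1 (0.27, adjusted p = 0.0465).

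The second Dnajb1 probe set, 1383302_at, gave another result at 72 h. Its 24 h difference was also negative, -0.34 (adjusted p = 0.0177). At 72 h it read 11.09, 11.01 and 10.93 with monuron and 10.23, 10.32 and 10.08 with DMSO, with no overlap and a difference of 0.80 (SE 0.08, adjusted p = 1.95e-06). The mean of both probe sets gave 0.48 (adjusted p = 2.68e-04). Both probe sets were lower at 24 h, and whether Dnajb1 was higher at 72 h depends on which of them is read.

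**Figure D2:**
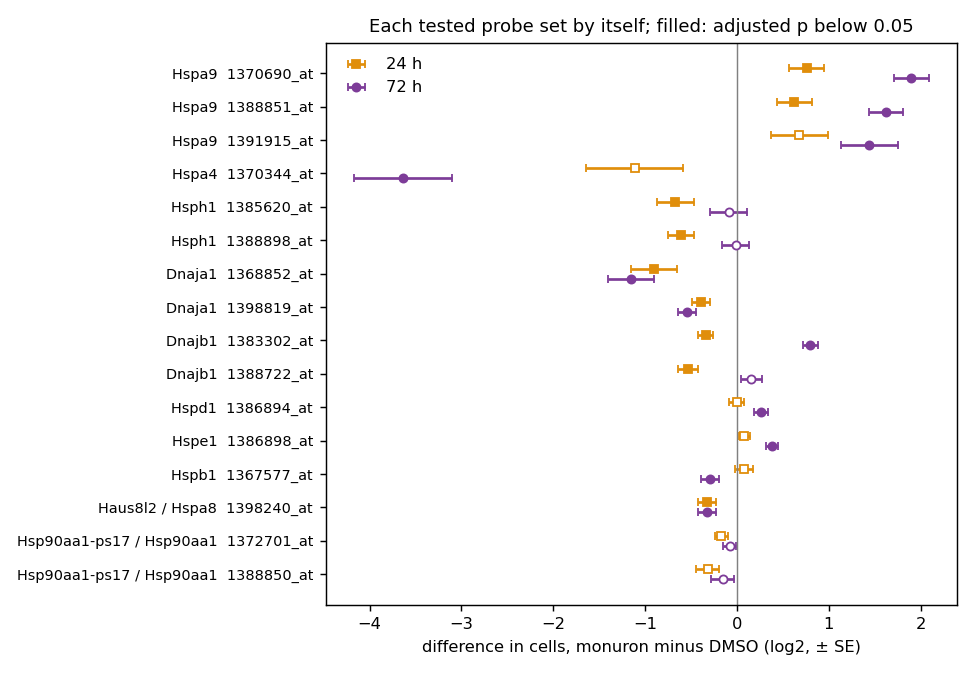
Difference in cells, monuron minus DMSO (x axis, log2, bars ± SE), of each tested probe set of the 10 genes at 24 h (squares) and 72 h (circles). Filled symbols have an adjusted p under 0.05; at 72 h the 2 probe sets of Dnajb1 read 0.16 and 0.80, and the 3 of Hspa9 read 1.44 to 1.90.

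HSPD1 and HSPE1 form the chaperonin barrel and its lid in the mitochondrial matrix, and their genes share the 30 bases shown above. Hspd1 (1386894_at) read 12.98, 12.96 and 12.87 with monuron at 72 h and 12.83, 12.63 and 12.56 with DMSO. Hspe1 (1386898_at) read 14.10, 14.17 and 14.13 against 13.75, 13.72 and 13.79. Neither pair of groups overlapped. Hspd1 was 0.26 higher (SE 0.08, adjusted p = 0.0085) and Hspe1 0.38 higher (SE 0.06, adjusted p = 1.06e-04). Without DMSO replicate 3 these were 0.21 (adjusted p = 0.0340) for Hspd1 and 0.40 (adjusted p = 1.16e-04) for Hspe1. The Hspd1 call was lost in a fit of the 6 arrays of 72 h (adjusted p = 0.0596) and with array weights (0.0830). Neither was called at 6 or 24 h, where their differences lay between -0.01 and 0.08. Over the 18 cell arrays the 2 genes had r = 0.94, which includes the time course and the treatment together. RefSeq names 20 pseudogenes after Hspd1, so its probe set may read more than 1 locus.

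Hspb1, for a small heat shock protein that holds unfolded proteins and binds actin, was lower at 72 h. Its probe set 1367577_at read 12.46, 12.41 and 12.17 with monuron against 12.58, 12.86 and 12.49 with DMSO. The groups lay close without overlapping, and the difference was -0.30 (SE 0.10, adjusted p = 0.0173). It was -0.37 without DMSO replicate 3 (adjusted p = 0.0044). The call was lost without monuron replicate 3 or DMSO replicate 2 of 72 h (adjusted p = 0.1017 and 0.1130), in a fit of the 6 arrays of 72 h (0.1060), with each array centred (0.0983) and with array weights (0.1235). At 6 and 24 h the differences were -0.20 and 0.07, neither called.

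The probe set annotated to both Hspa8, the constitutive cytosolic HSP70, and Haus8l2 (1398240_at) was among the brightest, with values from 14.19 to 15.37 over the cell arrays. At 24 h it read 14.44, 14.42 and 14.41 with monuron and 14.76, 14.69 and 14.81 with DMSO, a difference of -0.33 (SE 0.10, adjusted p = 0.0408). At 72 h the groups overlapped and the difference was again -0.33 (adjusted p = 0.0084). The 2 probe sets annotated to both Hsp90aa1, the stress-induced cytosolic HSP90, and a pseudogene of it, 1372701_at and 1388850_at, differed by -0.17 and -0.32 at 24 h, where their groups did not overlap, and by -0.08 and -0.16 at 72 h. None of these 4 values was called. At 6 h 1398240_at, 1372701_at and 1388850_at differed by -0.07, 0.04 and 0.05, none called.

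**Figure D3:**
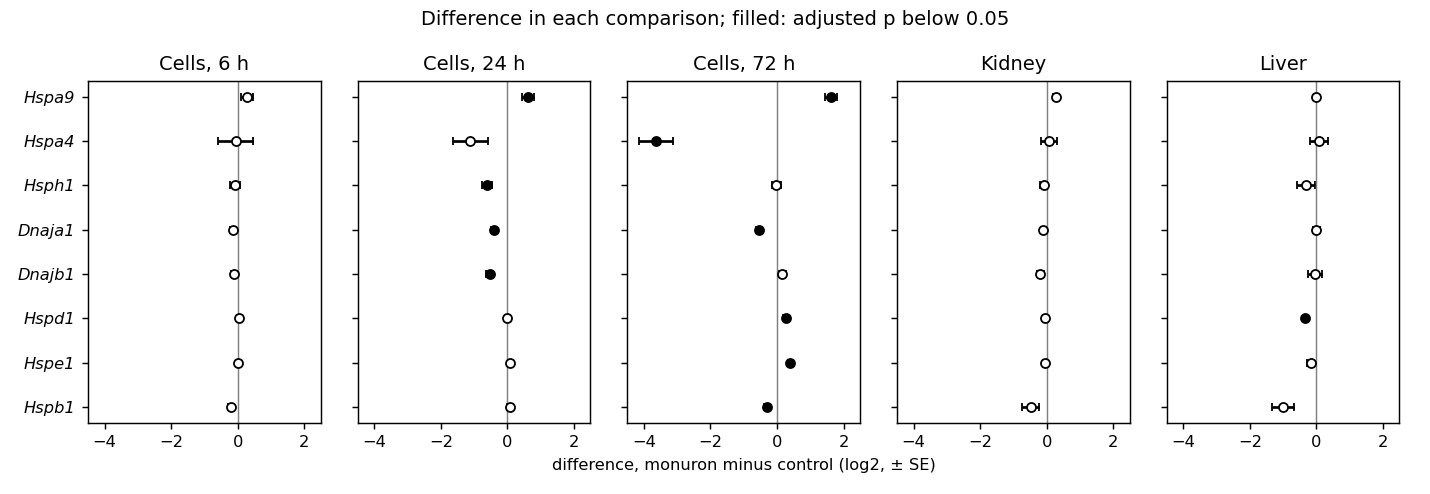
Difference, monuron minus control (x axis, log2, bars ± SE), of the 8 members with their own probe set in cells at 6, 24 and 72 h, in kidney and in liver. Filled points have an adjusted p under 0.05: none at 6 h or in kidney, 4 at 24 h, 6 at 72 h and 1 in liver.

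Whether the difference itself changed between 24 and 72 h was tested directly. Of the 8 members 4 moved up and 2 down, so that 6 of 8 were called against 37.9% of all genes (18.3% up and 19.6% down). Hspa9 gained 1.00 (SE 0.26, adjusted p = 0.0078), Dnajb1 0.69 (SE 0.16, adjusted p = 0.0029), Hsph1 0.60 (SE 0.20, adjusted p = 0.0302) and Hspe1 0.30 (SE 0.09, adjusted p = 0.0170). Hspa4 changed by -2.52 (SE 0.74, adjusted p = 0.0137) and Hspb1 by -0.37 (SE 0.14, adjusted p = 0.0486). Dnajb1 and Hsph1 had been below DMSO at 24 h. By 72 h both overlapped with DMSO on the probe sets tested here, while the second probe set of Dnajb1 lay above it and changed by 1.14 (adjusted p = 2.22e-05). The second probe set of Hsph1 changed by 0.58, which was not called (adjusted p = 0.1303). The difference of Hspa9 had become larger on its brightest probe set and on 1370690_at (1.14, adjusted p = 0.0049), not by a call on 1391915_at (0.76, adjusted p = 0.2017). The count was 5 of 8 without DMSO replicate 3 of 72 h, against 48.6% of all genes. Hsph1 was then not called (0.45, adjusted p = 0.0541), nor in 6 of the other fits without 1 array (adjusted p up to 0.0829), and Hspb1 was not called in 13 of the 18 fits that left out 1 array. For the change between 6 and 24 h 2 members had an unadjusted p under 0.05 by limma, Dnajb1 and Hsph1. The share of all genes at that threshold was not computed. By adjusted p the change was called for 0 of 8 members, against 1.22% of all genes. That count was 6 of 8 with array weights, where 46.0% of all genes were called, and 1 with the replicate number as a block (Dnajb1, adjusted p = 0.0318), where 4.74% were. By size Dnajb1 (-0.43), Hsph1 (-0.53) and Hspa4 (-1.05) had the largest changes.

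The members also moved with time in DMSO alone. From 6 to 24 h 6 of 8 were called (53.1% of all genes), 5 of them lower (28.3% of all genes) and 1 higher (24.8%). The median was -0.61, beside -0.02 over all genes. Hspd1 fell by 0.90 (SE 0.08, adjusted p = 2.06e-07), from 13.43, 13.44 and 13.35 to 12.50, 12.40 and 12.64. Hsph1 fell by 0.88 (adjusted p = 9.42e-05), Hspe1 by 0.73 (adjusted p = 2.39e-07), Dnaja1 by 0.49 (adjusted p = 4.02e-04) and Dnajb1 by 0.41 (adjusted p = 0.0053). Hspb1 went up by 0.49 (adjusted p = 6.33e-04), from 12.07, 11.84 and 11.86 to 12.39, 12.41 and 12.44. The shared probe sets moved with the majority: that of Hspa8 and Haus8l2 by -0.56 and those of Hsp90aa1 and its pseudogene by -0.62 and -0.80, all called, as were 46.5% of probe sets tested one by one. The second probe sets of Dnajb1 and Hsph1 also fell, by 0.57 and 0.63 (adjusted p = 4.87e-05 and 0.0165), while that of Dnaja1 changed by -0.13, which was not called (adjusted p = 0.6972). This comparison shares the DMSO arrays of 24 h with the treatment difference at 24 h.

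From 24 to 72 h in DMSO 1 of 8 was called, Hsph1 at -0.42 (SE 0.14, adjusted p = 0.0408), against 27.9% of all genes. The call of Hsph1 was lost in 11 of 18 fits without 1 array. The count of 1 rests on DMSO replicate 3 of 72 h. Without that array it was 6 of 8, with 5 higher and 1 lower, against 37.5% of all genes (14.3% higher and 23.1% lower). Hsph1 was then no longer called (-0.27, adjusted p = 0.1370). Hspa9 then changed by -0.32 (adjusted p = 0.0082) where it had been at 0.02 with that array, and Hspa4 by 1.38 (adjusted p = 0.0414).

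In the rat kidney 0 of 8 members was called, against 10.2% of 9542 genes. At an unadjusted p under 0.05 by limma the count was 1, Hspa9, and the share of all genes at that threshold was not computed. The member nearest to a call was Hspa9. Its kidney arrays read 12.95, 12.94, 12.91 and 13.09 with monuron and 12.85, 12.72, 12.74 and 12.50 in controls. All treated arrays were above all control arrays, as for 19.4% of genes, and the difference was 0.27 (SE 0.08, adjusted p = 0.0575), or 1.21-fold. It was called without control replicate 1 (0.32, adjusted p = 0.0408). Its second probe set was 0.44 higher (adjusted p = 0.0499 over all probe sets, of which 7.41% were called), with overlapping groups. A further one, 1391915_at, differed the other way, by -0.50 (SE 0.46, adjusted p = 0.5266), so the probe sets of Hspa9 do not share a direction in kidney. The other 7 members differed by -0.47 to 0.07, and their median with Hspa9 was -0.07 beside -0.08 over all genes. Hspb1 had the largest of these, -0.47 (SE 0.25, adjusted p = 0.2455), with 7.74, 7.77, 7.17 and 7.39 against 7.34, 7.82, 8.16 and 8.63. The second probe sets of Dnaja1, Dnajb1 and Hsph1 differed by -0.0021, -0.35 and 0.21 in kidney, none called. Of the shared probe sets, 1372701_at of Hsp90aa1 and its pseudogene differed by -0.32 (adjusted p = 0.0761) and 1388850_at by -0.20 (adjusted p = 0.5344). That of Hspa8 and Haus8l2 differed by -0.17 (adjusted p = 0.1035).

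In the liver 1 of 8 members was called, against 3.12% of 9361 genes. Hspd1 read 12.93, 12.90, 12.88 and 12.96 with monuron and 13.27, 13.17, 13.37 and 13.21 in controls. No treated array reached a control array, as for 14.1% of genes, and the difference was -0.34 (SE 0.06, adjusted p = 0.0260), or 1.26-fold lower. The call was lost without 6 of the 8 arrays in turn (adjusted p from 0.0555 to 0.0914) and without a trended prior (0.0678). Hspe1, its partner, read 14.00, 13.83, 14.02 and 13.95 against 14.03, 14.07, 14.43 and 13.96, overlapping, with a difference of -0.17 (SE 0.10, adjusted p = 0.3293). Hspb1 was dim in liver and had the largest difference, -0.999 (SE 0.32), which was not called (adjusted p = 0.1123). Its arrays read 5.27, 4.49, 4.44 and 5.01 against 6.42, 6.23, 5.46 and 5.10. The other 5 members lay between -0.32 and 0.08. Hspa9 was at -0.02 on its brightest probe set, at 0.47 on 1370690_at (adjusted p = 0.2155) and at -0.41 on 1391915_at (adjusted p = 0.6501). The second probe sets of Dnaja1, Dnajb1 and Hsph1 differed by 0.26, -0.12 and -0.10, none called. The shared probe sets 1398240_at, 1372701_at and 1388850_at differed by -0.20, -0.02 and -0.27, none called.

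Set against each other in 1 fit of both organs, the liver and kidney differences of 0 of 8 members were called as unlike (2.68% of 10114 genes were). At an unadjusted p under 0.05 by limma the count was 2, Hspd1 and Hspa9. The share of all genes at that threshold was not computed, and the 2.68% is for adjusted p. Hspd1 was nearest, at -0.30 (SE 0.08, adjusted p = 0.0661), and Hspa9 followed at -0.29 (SE 0.10, adjusted p = 0.1418). With the replicate number as a random block Hspd1 was called (adjusted p = 0.0421), where 3.8% of all genes were. The other probe sets of Hspa9 were at 0.029 (1370690_at, adjusted p = 0.9782) and 0.089 (1391915_at), so the difference of its brightest probe set was not seen on them. Hspd1 was thus higher with monuron in the cells at 72 h and lower in liver, and no test spans cells and organs.

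**Figure D4:**
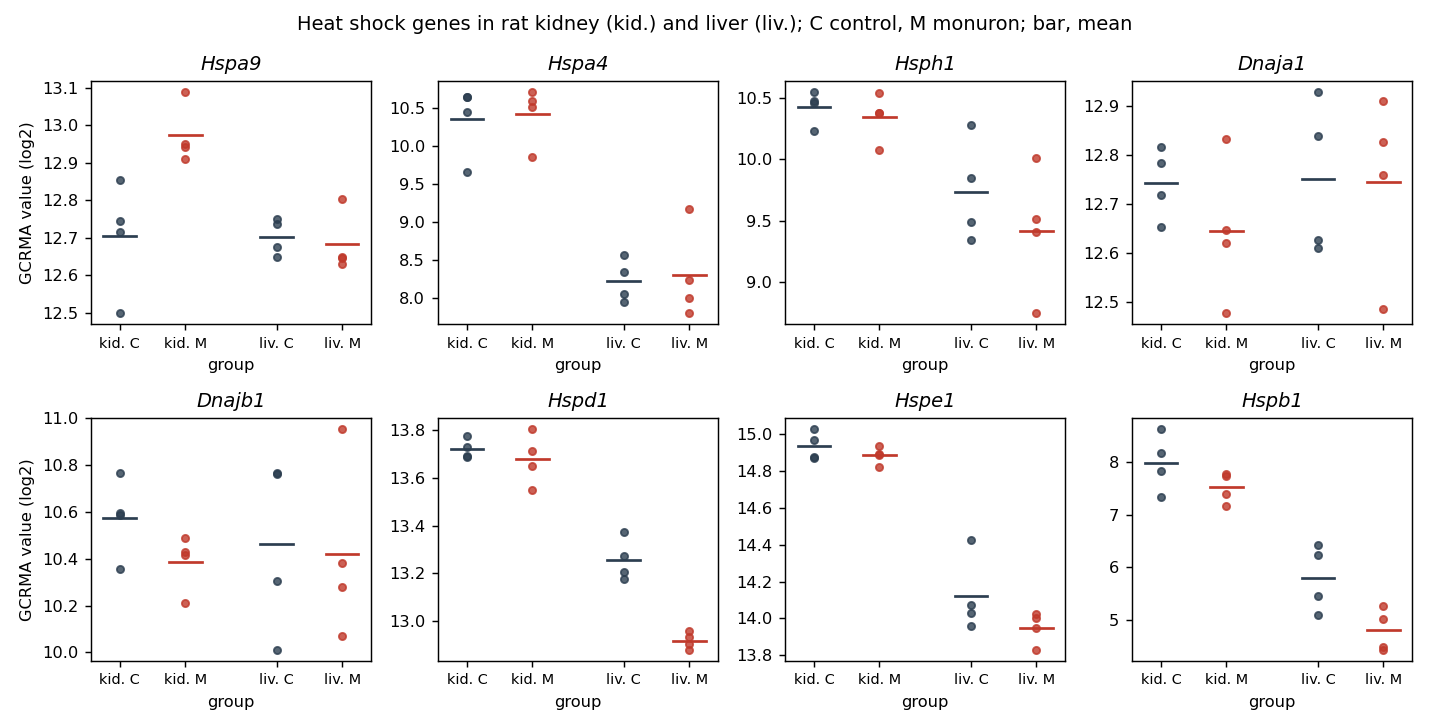
Log2 expression values (y axis) of the 8 members with their own probe set in rat kidney and liver, controls (C) and monuron (M), 4 arrays each. Points are arrays and bars are group means, to be read within an organ; the groups are apart for Hspa9 in kidney and Hspd1 in liver.

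Genes that work with the members were counted by role. At 24 h in the cells, of 22 HSP90 genes and cochaperones 5 were lower and 0 higher, including Ahsa1, which activates HSP90 ATP hydrolysis (-0.43, SE 0.08, adjusted p = 0.0042), and Stip1, which links HSP70 to HSP90 (-0.45, SE 0.09, adjusted p = 0.0065). Over all genes 7.14% were lower and 6.43% higher. The median of the 22 was -0.18, beside -0.00 over all genes. In DMSO from 6 to 24 h 28.3% of all genes were lower and 24.8% higher. Of the 22 HSP90 genes and cochaperones 20 were lower and 0 higher, with a median of -0.77. Ahsa1 had fallen by 1.25 and Stip1 by 1.17. In the same interval 11 of 14 genes of the cytosolic chaperonin and prefoldin were lower and 0 higher. At 72 h the HSP90 list was divided, with 8 higher and 5 lower (all genes: 30.7% higher and 30.9% lower). Among the higher were Ruvbl2 (1.03) and Ptges3, the cochaperone p23 (0.32), and among the lower Ttc4 (-0.78).

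At 72 h 30.7% of all genes were higher and 30.9% lower. Among 24 genes of mitochondrial chaperones, proteases and import 12 were higher and 4 lower at that time, with a median of 0.21. The genes of that list whose proteins act on HSPA9 were picked out after their values were seen. Of these, the exchange factor gene Grpel1 was 0.91 higher (SE 0.12, adjusted p = 7.34e-06) and Grpel2 0.58 higher (SE 0.15, adjusted p = 0.0033). The import motor genes Timm44 (0.28) and Pam16 (0.07), the HSPA9 escort gene Dnlz (0.01) and the iron-sulfur J protein gene Hscb (-0.17) were not called. Dnaja3, a mitochondrial J protein counted with the J proteins, was 1.12 higher (SE 0.15, adjusted p = 1.39e-05). In that J protein list Dnajc15 was 0.84 higher (adjusted p = 7.08e-04), while Dnajc19 (0.12) was not called (adjusted p = 0.3057). Of the import channel and receptor genes Tomm70 (1.10, SE 0.14, adjusted p = 5.80e-06), Tomm40 (0.73, adjusted p = 1.60e-04) and Tomm20 (0.15, adjusted p = 0.0161) were higher. Tomm22 (-0.58, adjusted p = 8.15e-06) and Timm17a (-0.36, adjusted p = 0.0018) were lower. Dnaja3 was already higher at 24 h (0.50, adjusted p = 0.0394), a call lost in 9 of 18 fits that left out 1 array (adjusted p up to 0.1194). In liver 2 of the 24 were lower (all genes: 2.02% lower and 1.10% higher). These were the AAA chaperone of complex III assembly Bcs1l (-0.70, adjusted p = 0.0298) and the protease subunit Clpp (-0.52, adjusted p = 0.0465). In kidney 2 of the 24 were lower as well, Bcs1l (-0.50) and Phb2 (-0.33), where 6.34% of all genes were lower and 3.87% higher. Leaving out 1 of the 8 arrays in turn, the liver calls of Bcs1l and Clpp were lost in 5 and 7 fits and the kidney calls of Bcs1l and Phb2 in 6 and 2.

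Of 25 ER chaperones 20 were higher and 2 lower at 72 h, with a median of 0.62. Of the 8 members 3 were higher and 3 lower, with a median of 0.07 (all genes: 30.7% higher and 30.9% lower). Whether the lists differ was not tested. Dnajb9, an ER J protein, was 2.01 higher (SE 0.23, adjusted p = 2.87e-06) and Sdf2l1 2.16 higher (SE 0.26, adjusted p = 4.14e-06). At 6 h, when no member was called, Herpud1 of ER-associated degradation was 1.18 higher (SE 0.27, adjusted p = 0.0180), a call lost in 3 of 18 fits that left out 1 array. In kidney Hspa5, the ER HSP70, was 0.42 higher (adjusted p = 0.0308, lost in 6 of 8 fits without 1 array), while Hsp90ab1, the constitutive cytosolic HSP90, was 0.30 lower (a difference of -0.30, adjusted p = 0.0142) with 7 of 22 genes of its list lower and 0 higher (all genes: 6.34% lower and 3.87% higher). The mean level of the 17 proximal tubule markers was 13.31 to 13.40 on treated and 13.14 to 13.18 on control kidney arrays, with 3 called higher and 0 lower. That of the 7 epithelial markers was 9.84 to 10.08 against 10.09 to 10.67, with 0 called higher and 1 lower. Their part in the kidney results was not tested. Without DMSO replicate 3 of 72 h, an alternative chosen after seeing the data, the 72 h counts were 20 and 2 for the ER list, 12 and 3 for the mitochondrial list and 8 and 6 for the HSP90 list, against 34.1% of all genes higher and 31.7% lower in that fit.

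**Figure D5:**
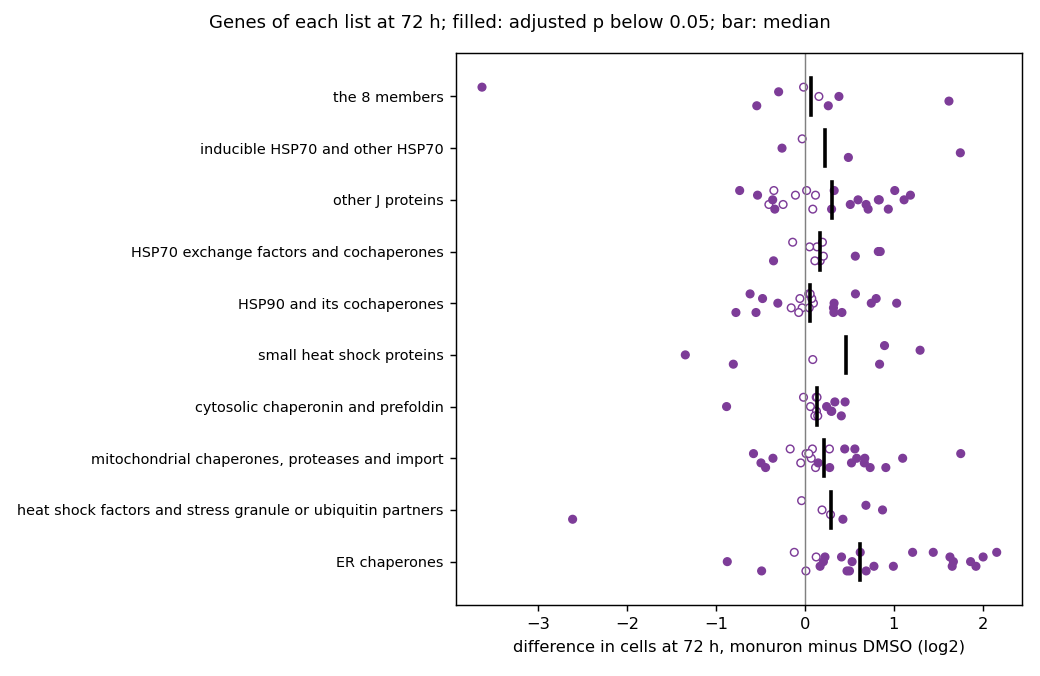
Difference at 72 h in cells, monuron minus DMSO (x axis, log2), of every tested gene of each list; bars are list medians and filled points have an adjusted p under 0.05. The 25 ER chaperones have a median of 0.62 and the 8 members one of 0.07, with Hspa4 at -3.64 and Hspa9 at 1.62.

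The heat-inducible HSP70 gene Hspa1a was dim in the cells: its probe set lay between 2.01 and 2.08 on all 18 arrays, under their medians, and was not tested. In kidney it read between 6.21 and 8.35 and was -0.97 apart (SE 0.35), which was not called (adjusted p = 0.1040). Of the factors that control the family, Hsf1, the heat shock factor itself, was 0.87 higher at 72 h in cells (SE 0.17, adjusted p = 4.02e-04) and differed by -0.42 in kidney (adjusted p = 0.0486, lost in 7 of 8 fits without 1 array). Hsbp1, which binds and restrains HSF1, differed by -0.67 at 24 h (adjusted p = 0.0483, lost in 14 of 18 fits without 1 array) and by -2.62 at 72 h (SE 0.22, adjusted p = 1.74e-07). Among other small heat shock proteins the alphaB crystallin gene Cryab was lower at 72 h in cells (-0.81, adjusted p = 6.30e-06) and in kidney (-0.94, adjusted p = 0.0094), and Hspb8 was higher in cells (1.30, adjusted p = 0.0034). Other J proteins split 12 higher and 4 lower of 23 at 72 h, and HSP70 exchange factors and cochaperones 3 and 1 of 11. Over all genes 30.7% were higher and 30.9% lower at that time.

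Over the 18 cell arrays the genes most like each member by Pearson's r, which follows time, treatment and array together, differed from member to member. Hspd1 lay nearest to Cct6a (r = 0.97) and Cct7 (0.97), subunits of the cytosolic chaperonin, and then Prmt5 (0.96). Hspa9 lay nearest to Xpot, which exports transfer RNA (0.98), Grb10 (0.98) and Ghitm (0.98), and Hspe1 to Rbm28 (0.98), Eif2b4 and Ndufb9. Hsph1 was nearest to Mcm5 of the replicative helicase (0.97), Sf3a3 and Nup85. For Hspa4 the nearest were Prpf18 (0.98), Bclaf1 and Tmem50b, for Dnaja1 Srrt (0.97), Dgcr8 and Emc8, for Hspb1 Rasl11b (0.98), Fam3a and S100a1, and for Dnajb1 Letm1 (0.92), Isca1 and Max. Among the members Hspa4 and Hspa9 ran most opposite (r = -0.87), and Hspb1 ran opposite to Hspd1 (-0.84).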

How the data were processed

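RNA of 18 cell, 8 kidney and 8 liver arrays was analysed. Per the submitters' processing notes the deposited log2 values were made with GCRMA by the authors, and whether cells and organs were normalized together was not given in the sources used here. Of 31099 probe sets, 57 controls were left out, 20826 carry 1 symbol, 436 several and 9780 none in the platform annotation. A gene was tested where its brightest probe set exceeded the array median on a number of arrays no lower than the size of the smallest group. Differences were tested with limma 3.58.1 (R 4.3.3, trended eBayes, Benjamini-Hochberg) in 1 fit of the cells and 1 of each organ, and the steps were tested on simulated data. The number of arrays limits the precision. Same-numbered arrays deviated together at 6 h (r 0.39 to 0.65) and 72 h (0.15 to 0.34), not at 24 h or within an organ. Alternatives covered scaling, filter, prior, probe sets, array weights, a floor, replicates, block and samples fitted. All 10 members were to be named, with the 4 genes of smallest adjusted p from each related list in each comparison and the 3 nearest genes by r. Only a part of these list genes is named above, and other list genes were named after their values were seen. In kidney Dnajc9 (lower) and Sil1 (higher), whose calls were lost in 0 of 8 fits without 1 array, are among those left out. The members and lists were chosen with earlier results of these data known.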

Additional observations from a re-analysis of the deposited data

Results flagged for a closer look

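The treatment difference of 6 members changed between 24 and 72 h in cells by the test of the change itself: Hspa9 by 1.00, Dnajb1 by 0.69, Hsph1 by 0.60, Hspe1 by 0.30, Hspb1 by -0.37 and Hspa4 by -2.52.

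In 2 of the 68 organ groups of 4 arrays examined over the member probe sets, 1 array lay far from the other 3, and chance gives such a gap in about 1 of 20 groups. Both were probe sets of Hspa9 in liver with monuron. On 1388851_at replicate 2 read 12.80 against 12.63 to 12.65 on the others, a gap of 0.882 of the range. On 1370690_at replicate 3 read 10.87 against 11.38 to 11.40, a gap of 0.955 of the range. The arrays and directions differ between the 2 probe sets.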

How the results depend on the processing

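Counts of called members out of 8 gave other values in settings such as these. For the DMSO change from 24 to 72 h the count of 1 became 2 with centred arrays (25.4% of all genes) and 0 without a filter (15.5%). It became 0 without a trended prior (27.3%), 0 with array weights and 6 without both 72 h arrays numbered 3 (42.4% of all genes). At 6 h the count of 0 became 3 with array weights (42.8% of all genes) and 1 in fits of 6 or 12 arrays (15.5% and 23.0%), and for the change from 6 to 24 h it became 6 with array weights (46.0%). The count of 4 at 24 h became 3 with centred arrays (10.8% of all genes), 3 without a filter (6.49%) and 6 with array weights (58% of all genes). At 72 h the count of 6 became 5 with centred arrays (59.8%), 7 with the mean of probe sets (58.9%) and 4 with array weights (43.6%). For the change from 24 to 72 h the count of 6 became 4 without a filter (21.8%) and 5 without a trended prior (37.2%). In liver 1 became 0 without a trended prior. Leaving out 1 array at a time, the counts of members ranged from 0 to 1 at 6 h, 1 to 5 at 24 h, 5 to 7 at 72 h, 0 to 1 for the change from 6 to 24 h, 4 to 6 for that from 24 to 72 h, 6 to 6 for DMSO from 6 to 24 h, 0 to 6 for DMSO from 24 to 72 h, and 0 to 1 in kidney, in liver and between organs. The shares of all genes called in the fits without 1 array are not given beside these ranges. The causes were not tested.

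With the replicate number as a block, the count for members became 1 for the change from 6 to 24 h (Dnajb1, adjusted p = 0.0318), 0 in liver (Hspd1, adjusted p = 0.0990) and, with the number as a random block, 1 between organs (Hspd1, adjusted p = 0.0421). Hspa4 at 24 h (adjusted p = 0.0059) and Hspd1 from 24 to 72 h (adjusted p = 0.0247) were called with it. Every same-numbered pair had r above 0.1 at 6 and 72 h only. Between kidney and liver 8 of 8 control and 7 of 8 treated arrays correlated best with their own number (r from 0.04 to 0.19), a hint from the data. The block could not be fitted to the DMSO time changes. It changed no other call of a member.

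Signs turned for small values. With centred arrays these were Hspe1 (-0.054) and Hspd1 (-0.021) at 6 h, Hsph1 at 72 h (0.075), Hspd1 from 6 to 24 h (0.012) and Hspa4 between organs (-0.023). With array weights they were Hspd1 at 6 h (-0.013) and Hspa9 in DMSO from 24 to 72 h (-0.059), which was -0.32 without both arrays numbered 3. With the mean of probe sets they were Hspa9 in DMSO from 6 to 24 h (0.017), Hsph1 in kidney (0.060), and Dnaja1 (0.13) and Hspa9 (0.011) in liver. Leaving out 1 array turned the sign of Dnaja1 in liver (-0.060 to 0.081), Dnajb1 in liver (-0.22 to 0.077) and between organs (-0.028 to 0.27), Hspa4 at 6 h (-0.16 to 0.089), in kidney (-0.16 to 0.26), in liver (-0.21 to 0.25) and between organs (-0.28 to 0.24), Hspa9 in DMSO from 24 to 72 h (-0.32 to 0.23), Hspd1 at 6 h (-0.013 to 0.080), at 24 h (-0.063 to 0.060), from 6 to 24 h (-0.11 to 0.015) and in kidney (-0.084 to 0.0011), Hspe1 at 6 h (-0.055 to 0.093) and from 6 to 24 h (-0.012 to 0.14), and Hsph1 at 72 h (-0.16 to 0.17) and in kidney (-0.15 to 0.0026).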
